A study of Onthophagus taurus with 60 samples.

Results

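The dorsal head epidermis of the beetle Onthophagus taurus was compared with the anterior margin of its prothorax, the front edge of the body segment that adjoins the head. The comparison takes 12 of the 60 libraries of the study, 6 from dorsal head and 6 from anterior margin, chosen by their tissue labels alone. All came from male prepupae, the last larval stage before the pupa, and no gene was altered or agent given according to the labels. The study sequenced polyadenylated RNA from 8 epidermal regions, to ask how the thoracic horn relates to wings and to other body wall. The other 6 regions are the posterior and carinated margins, the dorsal prothorax and the thoracic horn, all on the prothorax, the T2 wing on the segment behind, and paired support structures on the abdomen. The submitters took the dorsal head as a contrast tissue with no published tie to wings, whereas the margins of the prothorax were counted among the wing-related tissues.

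In the prepupa the epidermis has detached from the larval cuticle, grows and folds, and begins to secrete the cuticle of the pupa. In males of Onthophagus taurus the dorsal head is the region from which the paired head horns grow, and the prothorax carries its own outgrowth. The prothorax of beetles bears no wings, but its margins have been studied as serial homologs of wings, that is, as structures built by related gene networks on different segments. Head and prothorax also belong to different body regions, so that a contrast of them holds both regional identity and the kind of outgrowth.

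The files identify transcripts by RefSeq accession, and nearly all genes matched to them carry only a locus number (LOC), so the transcripts are described here by level, by tissue and by their neighbours on the chromosome. Names of cell types, muscle, nerve or cuticle could not be attached: all 7 lists of cell type markers and all 7 pathway lists matched 0 genes, so the labelled tissues could not be checked against defining markers. Transcripts from other cell types in a dissected piece, and fewer cells of a type against less RNA per cell, cannot be told apart in such bulk samples.

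Head libraries were much deeper. Total counts were 81.41 ± 4.08 mega-counts (M) per head library (SD, n = 6) and 16.58 ± 1.21 M per anterior margin library, and the ratio of the median totals was 4.98. Depth therefore moves with tissue, and a tissue difference and a difference between sets of libraries cannot be told apart. Across transcripts, correlations of log2 CPM (the counts of a transcript scaled to a fixed library total) ran from 0.864 to 0.923 among head libraries, from 0.802 to 0.835 among anterior margin libraries and from 0.747 to 0.808 between the tissues, so the ranges within the anterior margin and between tissues just overlapped. Within the head, libraries 2 and 5 stood apart for some of the transcripts described below. XM_023063299.1, for example, had 2020 and 1050 CPM in head libraries 2 and 5 and at most 661 CPM in the other 4. Without these 2 libraries 4657 transcripts differed between the tissues, against 5006 with all 12.

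Differences between head and anterior margin were widespread and ran in both directions. Of 13656 transcripts tested, 5006 (36.7%) differed at an adjusted p under 0.05 in edgeR's quasi-likelihood test with Benjamini-Hochberg adjustment, the rule for every call given here. Of these, 2823 (20.7% of those tested) were higher in the head and 2183 (16%) were lower. The split depends on how libraries are scaled. Trimmed mean scaling, used throughout, put 56.4% of the calls higher in the head, and scaling by total counts put 21.9% there while moving the median log2 fold change of all transcripts by -0.386. Small differences should be read against that shift.

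Large differences ran in both directions, and which direction held more of them varied with the scaling, the libraries and the set of transcripts tested. At least 2-fold differences were called for 1203 transcripts (8.81%) higher and 1190 (8.71%) lower in the head, against 553 higher and 2042 lower with total counts and 1050 higher and 1318 lower with RLE scaling. At 16-fold or more there were 94 higher and 73 lower, and 72 higher and 95 lower with total counts. With 1 head library left out there were 63 to 70 higher and 73 to 79 lower, among 12377 to 12465 tested. With 1 anterior margin library left out there were 165 to 188 higher and 74 to 84 lower, among 14601 to 14672 tested. Without a filter on low counts there were 246 higher and 248 lower, among 21189 tested. With head reads thinned to the depth of the anterior margin, where fewer transcripts were tested, there were 56 higher and 59 lower. All 6 head values lay above or below all 6 anterior margin values for 2925 transcripts (21.4%), of which 1747 (12.8%) were higher and 1178 (8.63%) lower in the head. Counts were also summed per gene, with each unmatched transcript kept as a unit of its own. Of the 13656 tested transcripts, 10002 matched a gene. Of 11357 such gene-level units, 5002 (44%) were called, 2703 (23.8%) higher and 2299 (20.2%) lower in the head.

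**Figure D1:**
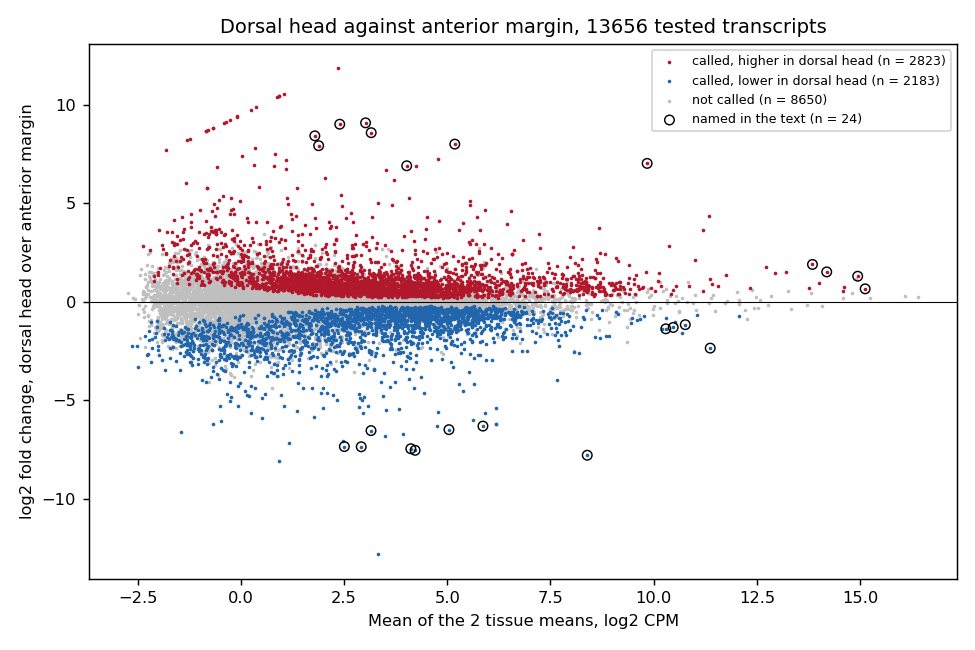
Log2 fold change of dorsal head over anterior margin (vertical axis) against the mean of both tissue means in log2 CPM (horizontal axis), 1 point per tested transcript. Red points (2823) were called higher and blue points (2183) lower in the head, grey points were not called, and open circles mark the 24 transcripts described in the text; the largest folds lie at low to middle levels and the 4 most abundant circled transcripts have log2 fold changes between 0.66 and 1.9.

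The transcripts described next were picked by fold among 1998 that were called, had no overlap between the tissues and reached a mean of 5 CPM in the higher tissue, so their separation is part of how they were chosen. Taken at 1 transcript per gene-level unit they numbered 1929, of which 1148 were higher and 781 lower in the head. The 8 with the largest folds in each direction and the 4 with the largest differences in CPM in each direction are given. CPM are not divided by transcript length, and levels are compared only between libraries for 1 transcript.

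Several transcripts were present in every head library and almost absent from the anterior margin. LOC111424359 (XM_023057866.1) had 6.27, 9.45 and 15.2 CPM as lowest, median and highest value in the head, against 0, 0 and 0.0619 CPM in the anterior margin. It had 4566 counts over the head libraries and 2 over the anterior margin libraries, a ratio of 610 after scaling, with a 95% counting interval of 169 to 5040. The log2 fold change was 9.02 ± 0.54 (SE), with an adjusted p of 1.4e-06 in edgeR's test. LOC111424387 (XM_023057893.1) showed the same picture at a lower level. Its lowest, median and highest values were 4.94, 6.26 and 9.87 CPM in the head, against 0, 0 and 0.054 CPM in the anterior margin. With 2 counts in the anterior margin the ratio was 401, with an interval of 111 to 3310.

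Both were also highest in the head among all 8 tissues. LOC111424387 averaged 7.08 CPM in the head when all 60 libraries were scaled together, and its mean was 0 in the posterior margin, dorsal prothorax, thoracic horn, T2 wing and support structures. LOC111424359 reached 0.835 CPM in the horn and no more than that elsewhere. In a fit of the 36 libraries of the 6 tissues with 6 libraries each, both were called higher in the head than in each of the 4 remaining tissues. The shares of all transcripts called higher in the head in that fit were 22.5% against dorsal prothorax, 16.9% against posterior margin, 19.5% against support structures and 26% against horn.

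LOC111425572 (XM_023059686.1) was the most even of these transcripts among head libraries. Its lowest, median and highest values were 23, 34.1 and 39.9 CPM in the head, against 0.0404, 0.234 and 0.713 CPM in the anterior margin. The log2 fold change was 6.91 ± 0.42 (SE; adjusted p = 1.4e-06, edgeR). It too was called higher in the head than in each of the 4 other tissues of that fit, and none of the 7 tissues outside the head averaged above 0.286 CPM.

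Head libraries differed more among themselves for a pair of transcripts with no matched gene. XM_023046278.1 had 18.5, 58.9 and 151 CPM as lowest, median and highest value in the head, against 0.0713, 0.252 and 0.486 CPM in the anterior margin, a log2 fold change of 8.01 ± 0.66 (SE; adjusted p = 7.7e-06, edgeR). XM_023047518.1 had 1.42, 6.88 and 13.7 CPM in the head, against 0, 0 and 0.143 CPM in the anterior margin. Its lowest head values, 1.89 and 1.42 CPM, were those of libraries 2 and 5. With 3 counts in the anterior margin its ratio was 277, with a counting interval of 94.6 to 1340. Both were called higher in the head than in the posterior margin, dorsal prothorax, horn and support structures. XM_023046278.1 was nonetheless present elsewhere, with 14.7 CPM in the carinated margin and 8.92 CPM in the horn, against 74.2 CPM in the head on the same scale.

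The other 3 of the 8 were not called different between the head and at least 1 other tissue. LOC111414410 (XM_023045749.1) had 6.36, 13.7 and 34.1 CPM in the head, against 0, 0 and 0.214 CPM in the anterior margin, and its 3 anterior margin counts all fell in library 1. The ratio was 620, with a counting interval of 212 to 3010. It averaged 10.9 CPM in the thoracic horn, and head over horn gave a log2 fold change of 0.55 (adjusted p = 0.54, edgeR). LOC111415711 (XM_023047530.1) had 11.1, 13.4 and 41.9 CPM in the head, against 0, 0.0202 and 0.162 CPM in the anterior margin, a log2 fold change of 8.59 ± 0.66 (SE; adjusted p = 5.4e-06, edgeR). It averaged 27.3 CPM in the support structures, where head over support structures gave -0.62 (adjusted p = 0.52).

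XM_023045708.1 was the most abundant of the 8. Its lowest, median and highest values were 853, 1340 and 4090 CPM in the head, against 9.72, 10.6 and 24.4 CPM in the anterior margin, a log2 fold change of 7.03 ± 0.52 (SE; adjusted p = 4.5e-06, edgeR). It averaged 3570 CPM in the horn and 1060 CPM in the support structures, and was not called different between the head and either of them. In the margins it was present at very different levels, with 162 CPM in the carinated margin and 7.09 CPM in the posterior margin.

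**Figure D2:**
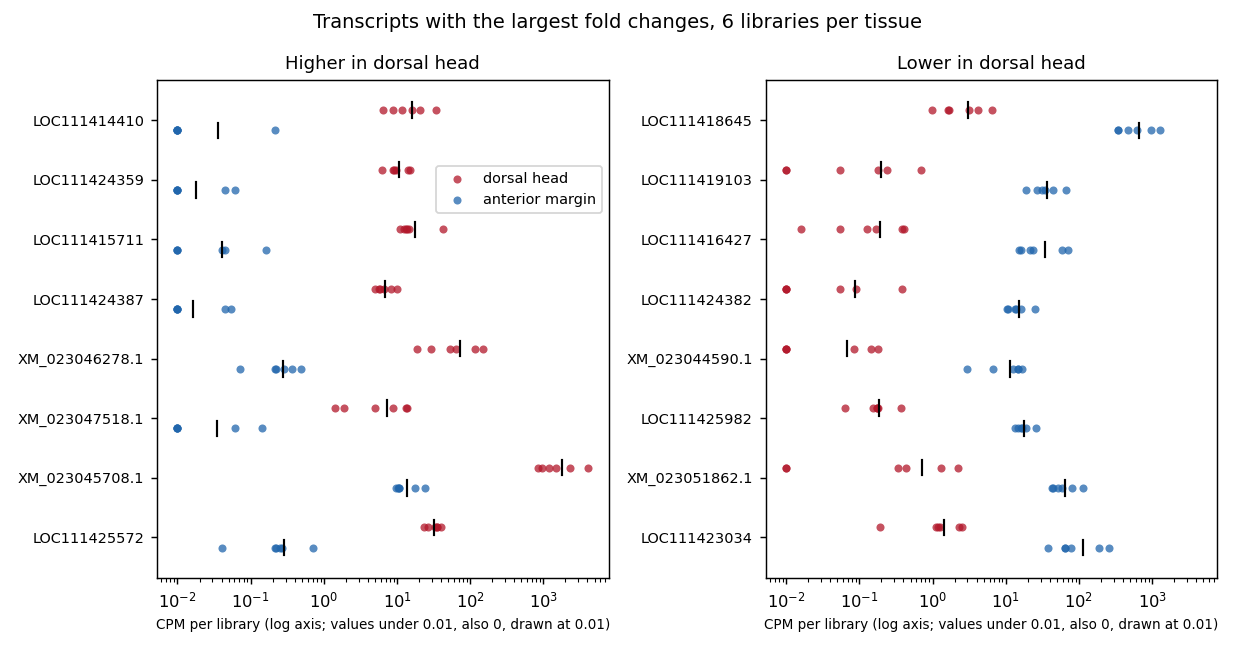
CPM in each of the 6 dorsal head (red) and 6 anterior margin (blue) libraries for the 16 transcripts with the largest fold changes, on a log axis with values under 0.01 drawn at 0.01; black ticks are means, and rows carry the gene symbol or, where no gene matched, the transcript accession. The left panel holds the 8 higher in the head and the right panel the 8 lower, and in each row the colours do not overlap.

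In the opposite direction, several transcripts were common on the prothorax and close to nothing in the head. LOC111418645 (XM_023051266.1) had 0.988, 2.4 and 6.48 CPM as lowest, median and highest value in the head, against 345, 546 and 1270 CPM in the anterior margin. The log2 fold change was -7.79 ± 0.64 (SE; adjusted p = 7.7e-06, edgeR). It was the head that stood apart here, since every other tissue averaged 200 CPM or more and the support structures reached 2440 CPM.

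LOC111425982 (XM_023060305.1) followed that pattern with little spread. It had 0.0631, 0.173 and 0.37 CPM in the head, against 13.3, 16.6 and 25.6 CPM in the anterior margin, a log2 fold change of -6.54 ± 0.37 (SE; adjusted p = 9.7e-07, edgeR). Every tissue other than the head averaged at least 9.62 CPM. In the fit of 36 libraries the anterior margin was called different from none of the 4 other tissues for this transcript, with adjusted p-values from 0.062 to 0.65 (edgeR).

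LOC111419103 (XM_023051863.1) followed the prothorax. It had 0, 0.117 and 0.702 CPM in the head, against 18.9, 32.7 and 67.3 CPM in the anterior margin, with a log2 fold change of -7.54 ± 0.91 (SE; adjusted p = 0.00011, edgeR). The 5 prothoracic tissues averaged between 18.9 and 44.1 CPM, while the T2 wing and the support structures averaged 0. XM_023051862.1, the transcript with the preceding accession number and no matched gene, had 0, 0.383 and 2.26 CPM in the head, against 43.1, 55.1 and 112 CPM in the anterior margin. It too averaged 0 in the wing and the support structures. Transcripts that share sequence can exchange reads in the deposited estimates, and whether this pair does was not tested.

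XM_023044590.1 was found mainly in the anterior margin. Its lowest, median and highest values were 0, 0.0418 and 0.182 CPM in the head, against 2.92, 13.4 and 16.8 CPM in the anterior margin, a log2 fold change of -7.35 ± 0.94 (SE; adjusted p = 0.00016, edgeR). The carinated margin, at 0.523 CPM, was the next highest tissue. In the fit of 36 libraries it was called higher in the anterior margin than in dorsal prothorax, posterior margin, support structures and horn, the smallest log2 fold change being 7.93 ± 1.33 (SE; adjusted p = 0.0023, edgeR) over the posterior margin. The shares of all transcripts called higher in the anterior margin were 4.24% against dorsal prothorax, 0.417% against posterior margin, 11% against support structures and 17.6% against horn.

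The remaining 3 were high in the anterior margin, with a spread among tissues. LOC111416427 (XM_023048448.1) had 0.0158, 0.147 and 0.401 CPM in the head, against 15.3, 22.6 and 70.8 CPM in the anterior margin, and LOC111423034 (XM_023056291.1) had 0.189, 1.22 and 2.56 CPM in the head, against 38.3, 71.5 and 256 CPM in the anterior margin. Neither was called different between the anterior margin and the horn. LOC111424382 (XM_023057888.1) had 0, 0.0267 and 0.387 CPM in the head, against 10.3, 13.6 and 25.4 CPM in the anterior margin. Its log2 fold change was -7.36 ± 0.95 (SE; adjusted p = 0.00016, edgeR). With all libraries scaled together, LOC111424382 averaged 15.5 CPM in the T2 wing, 15.1 CPM in the anterior margin and 10.3 CPM in the posterior margin. It was called higher in the anterior margin than in the dorsal prothorax and support structures. Against the posterior margin and the horn it was not called different. Head libraries 2, 4 and 5 held the highest head value of 4, 2 and 2 of the 8 transcripts that were lower in the head.

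**Figure D3:**
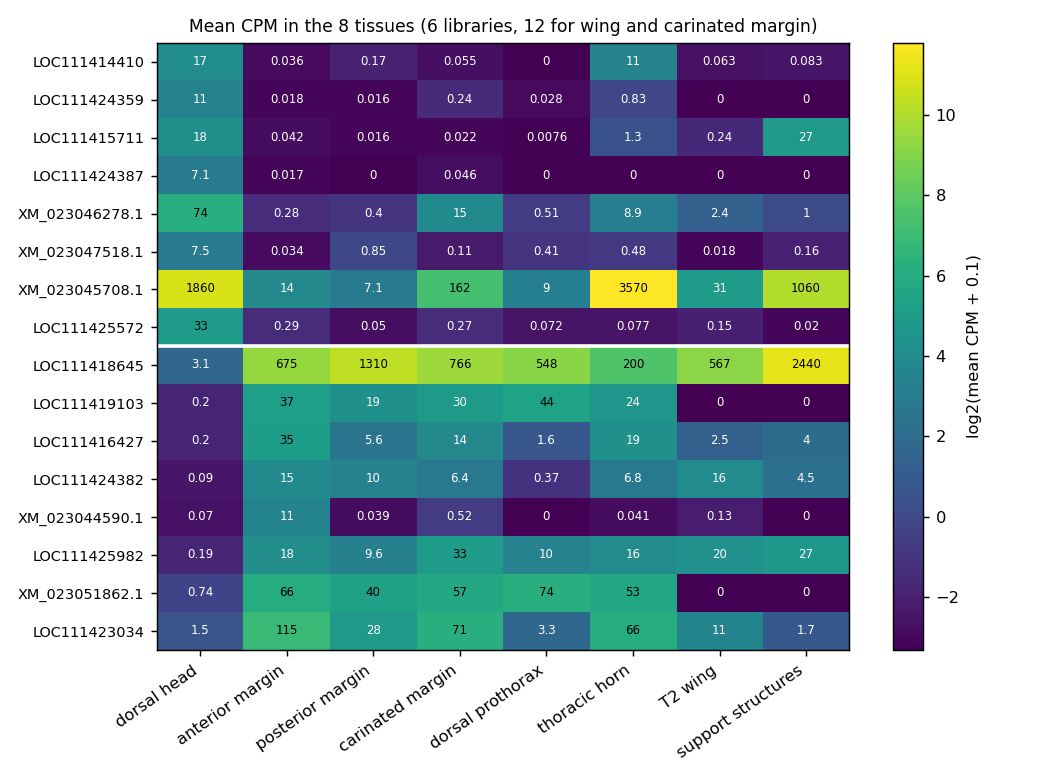
Mean CPM of the 16 transcripts with the largest fold changes (rows; the 8 higher in the head above the white line, the 8 lower below it) in the 8 tissues (columns), coloured by log2(mean CPM + 0.1) and printed in each cell. Dorsal head and anterior margin are the first columns; LOC111418645 is low in the head alone, and LOC111419103 and XM_023051862.1 are at 0 in wing and support structures.

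The most abundant differences were changes of a few fold in transcripts that fill much of each library. LOC111423660 (XM_023056928.1) had 30900, 45500 and 54300 CPM in the head, against 10800, 18300 and 28300 CPM in the anterior margin, a log2 fold change of 1.3 ± 0.27 (SE; adjusted p = 0.0033, edgeR). LOC111418336 (XM_023050850.1) averaged 27700 ± 6030 CPM in the head and 9690 ± 4350 CPM in the anterior margin (SD, n = 6 each). LOC111422327 (XM_023055538.1) averaged 23200 ± 7190 CPM in the head and 6230 ± 1920 CPM in the anterior margin, and had the largest fold of the 4, at 1.9 ± 0.27 (SE; adjusted p = 0.00029, edgeR). XM_023065439.1 differed least, with 43600 ± 5740 CPM in the head and 27700 ± 3320 CPM in the anterior margin. Its log2 fold change of 0.66 ± 0.16 (SE; adjusted p = 0.0085, edgeR) was 0.28 with total counts (adjusted p = 0.19), so that this difference rests on the scaling.

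Together these 4 transcripts made up 12.2 ± 0.93% of all counts in head libraries (SD, n = 6) and 6.91 ± 0.429% in anterior margin libraries. The ranges were 11 to 13% in the head and 6.43 to 7.52% in the anterior margin and did not overlap. These transcripts were picked for large differences without overlap, so this separation is largely part of that choice. Other tissues also had high levels. LOC111423660 and LOC111418336 averaged 38000 and 24200 CPM in the horn, and LOC111422327 averaged 18600 CPM in the support structures.

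Among abundant transcripts that were lower in the head, XM_023063299.1 changed most. It had 417, 604 and 2020 CPM as lowest, median and highest value in the head, against 2830, 4460 and 6110 CPM in the anterior margin, a log2 fold change of -2.35 ± 0.39 (SE; adjusted p = 0.00082, edgeR). The highest head value was that of library 2. LOC111420726 (XM_023053766.1) averaged 1080 ± 263 CPM in the head and 2400 ± 540 CPM in the anterior margin (SD, n = 6 each), and LOC111421305 (XM_023054447.1) averaged 698 ± 128 CPM in the head and 1810 ± 599 CPM in the anterior margin. LOC111424198 (XM_023057644.1) averaged 821 ± 257 CPM in the head and 2020 ± 691 CPM in the anterior margin, at a log2 fold change of -1.3 ± 0.27 (SE; adjusted p = 0.0032, edgeR).

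Some genes were found in the head and not at all in the anterior margin. Of the 11357 gene-level units tested, 13 were called higher in the head and had 0 counts in all 6 anterior margin libraries. No unit called lower had 0 counts in all 6 head libraries. Among the 13, XM_023057036.1, XM_023047167.1 and XM_023058397.1 were single transcripts with no matched gene. The deeper head libraries make a total of 0 counts less likely there: 3 counts over the tissue correspond to 0.00685 CPM in the head and 0.0266 CPM in the anterior margin. LOC111414572 had 2.53, 3.69 and 5.28 CPM in the head, at least 142-fold above the anterior margin, where 3 counts over the group were taken as the limit. LOC111424041 had 2.59, 3.4 and 4.77 CPM in the head, at least 136-fold above it. A unit at 0 in the anterior margin was tested only if all 6 head libraries passed the low-count filter. Presence in every head library was therefore fixed by that filter. The lowest limit among the 13 was that of LOC111425415, at least 21-fold.

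Genes that differed lay side by side in several places. The reference annotation places 16057 genes in order, of which 7386 were tested. Counting only genes that are direct neighbours in that order, 11 runs of 3 genes were all called at least 2-fold in 1 direction, 9 higher and 2 lower in the head, and none was longer. With untested genes skipped, a choice made after seeing the data, 28 runs had at least 3 genes and the longest had 7. Over all 11357 gene-level units, which include unmatched transcripts, 9.47% were called at least 2-fold higher and 9.68% lower in the head. The placed genes themselves leaned towards the head. Their runs of 1, 2 and 3 direct neighbours numbered 702, 51 and 9 higher, and 452, 29 and 2 lower. Of the 28 runs with untested genes skipped, 4 are described as blocks, chosen after their values were seen.

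The longest block held 7 protein-coding genes higher in the head, LOC111415701, LOC111415711, LOC111415715, LOC111415714, LOC111415687, LOC111415710 and LOC111415716, with 7 untested genes among them. Their log2 fold changes ran from 2.21 to 8.54, and in each of the 7 all head values lay above all anterior margin values. The share over all gene-level units was 13.5%. Block genes were chosen for being called at least 2-fold higher, so their separation is largely part of that choice. LOC111415710 had 2.6, 10.3 and 11.1 CPM as lowest, median and highest value in the head and averaged 0.502 ± 0.223 CPM in the anterior margin. LOC111415714 averaged 5.42 ± 1.69 CPM in the head and 0.392 ± 0.346 CPM in the anterior margin. A block ends by definition at a tested gene that is not called at least 2-fold in the same direction. The tested genes on either side, LOC111415720 and LOC111415697, were not called, with log2 fold changes of -0.21 and -0.11. The next tested genes outward were called higher, LOC111415693 at 0.88 ± 0.25 and LOC111415698 at 1.75 ± 0.5 (SE; adjusted p = 0.013 for each, edgeR). By mean, the support structures had more than the head of 5 of the 6 genes with a level in all tissues, with 60.6 CPM of LOC111415714 and 14.5 CPM of LOC111415715. LOC111415710 was the exception, at 7.98 CPM in the head and 0.152 CPM in the support structures.

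A second block higher in the head held LOC111414409, LOC111414410, LOC111414411 and LOC111414444. LOC111414411 was the abundant member, with 2430, 3350 and 10000 CPM in the head and a mean of 244 ± 84.8 CPM in the anterior margin, a log2 fold change of 4.33 ± 0.43 (SE; adjusted p = 1.8e-05, edgeR). LOC111414409 averaged 36.9 ± 30.3 CPM in the head and 0.321 ± 0.0872 CPM in the anterior margin, and LOC111414444 averaged 7.89 ± 5.04 CPM in the head and 0.107 ± 0.0923 CPM in the anterior margin. Neighbours in a block were not alike in the other tissues. LOC111414410 reached 11.4 CPM in the horn and 0.0555 CPM in the carinated margin, whereas LOC111414409 reached 14 and 16.2 CPM there. Near-identical neighbouring copies can share reads, and how the deposited estimates divided them was not checked here.

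A block of 5 genes was lower in the head, LOC111420471, LOC111419119, LOC111419103, the long non-coding gene LOC111419118 and LOC111419112. The last 3 had log2 fold changes of -7.1, -6.11 and -6.91. LOC111419112 had 0.00662 ± 0.00727 CPM in the head and 1.14 ± 0.558 CPM in the anterior margin, and 8.39 CPM in the wing. Its neighbour LOC111419103 was at 0.00853 CPM in the wing, so the block was not 1 unit across tissues. LOC111419119 averaged 0.844 CPM in the head, 3.95 CPM in the anterior margin and at most 0.0963 CPM in the other 6 tissues. The first gene, LOC111420471, was at the edge of the threshold, at -1.7 ± 0.63 (SE; adjusted p = 0.046, edgeR), and had an adjusted p of 0.051 without head libraries 2 and 5. It lost its call in 11 alternatives, with adjusted p-values from 0.051 to 0.094.

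The fourth block, LOC111413963, LOC111413966, LOC111414918 and LOC111414917, was lower in the head, and its last 3 genes had their highest means in the anterior and posterior margins. LOC111414917 had 2.4, 4.49 and 9.65 CPM in the head and averaged 95.9 ± 37.2 CPM in the anterior margin, a log2 fold change of -4.24 ± 0.41 (SE; adjusted p = 1.6e-05, edgeR). It averaged 140 CPM in the posterior margin and 28.6 CPM in the carinated margin, against 1.18 CPM in the dorsal prothorax, 0.265 CPM in the horn and 0 in the wing. LOC111414918 averaged 1.51 ± 0.828 CPM in the head and 17.4 ± 5.85 CPM in the anterior margin, and LOC111413966 averaged 0.234 ± 0.0977 CPM in the head and 2.08 ± 0.787 CPM in the anterior margin. LOC111414918 was at 0.205 CPM in the horn and LOC111413966 at 0 there. LOC111413963 differed less, by -1.22 ± 0.26 (SE; adjusted p = 0.0028, edgeR), and was present in every tissue, with 16.8 CPM in the horn as its highest mean.

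**Figure D4:**
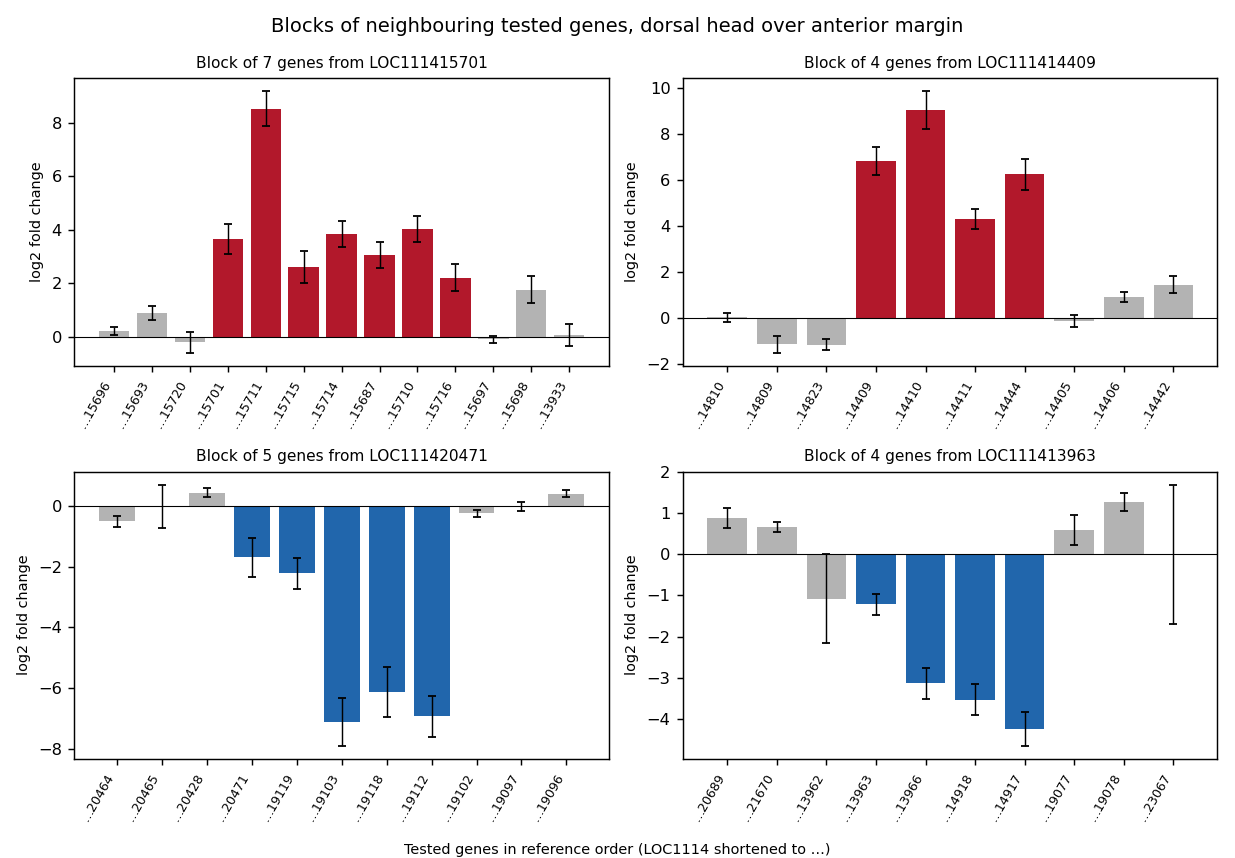
Log2 fold change of dorsal head over anterior margin (bars; whiskers are SE) for the tested genes of 4 blocks of neighbours and 3 tested genes on either side, in reference order with untested genes left out. Red bars are block genes called higher and blue bars block genes called lower in the head. Grey bars are flanking genes, called or not. Blocks end by definition where a tested gene is not called at least 2-fold in the same direction. The low or opposite folds at most block edges are part of that choice.

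Non-coding transcripts leaned towards the anterior margin. Of 685 tested, 163 (23.8%) were called lower in the head and 67 (9.78%) higher, against 2020 of 12971 coding transcripts (15.6%) lower and 2756 (21.2%) higher. The median log2 fold change was -0.33 for non-coding, 0.07 for coding and 0.06 for all tested transcripts. Non-coding transcripts were also less abundant, with a median mean level of 1.19 CPM against 5 CPM for coding ones. With head reads thinned to the depth of the anterior margin, 115 non-coding transcripts were called lower and 44 higher. With at least 50 counts in 6 libraries, 74 were lower and 48 higher. Fewer transcripts were tested in both fits. The part that level or depth plays in this difference was not tested.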

How the data were processed

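Transcript abundance was read from 1 deposited table of expected counts for 23725 transcripts in 60 columns. The submitters' processing notes name Trimmomatic 0.32, Bowtie2 2.3.2, RSEM 1.3.0 and DESeq2. The genome build, the annotation and the use of strand in counting were not given in the sources used here. Per the labels' protocols, kits were the Qiagen RNeasy Plus Micro for extraction and the stranded Illumina TruSeq mRNA for libraries. The expected counts the authors deposited divide reads among similar transcripts, and 29.7% of values were not whole (tolerance 0.001). They were rounded to whole counts before testing.

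Of the transcripts, 15104 matched 10670 genes of the RefSeq table of assembly IU_Otau_3.0 by accession, and these held 72.5% of counts in the 12 libraries. Unmatched transcripts were kept as units of their own. The table served for names and gene order only.

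The main fit used the 12 head and anterior margin libraries, filterByExpr (minimum count 10, minimum total count 15), TMM scaling and tissue as the only term, tested by quasi-likelihood in edgeR 4.0.16 under R 4.3.3 with limma 3.58.1. CPM are TMM-scaled, over the 12 libraries or, for other tissues, over all 60. Gene values sum the counts of a gene's transcripts. The SE of a log2 fold change was derived from the test, not returned by the fit. It is the absolute log2 fold change divided by the square root of the test's F statistic. A tissue at 0 gives a fold as a bound against 3 counts over its libraries; 1 to 3 counts give a ratio with a 95% interval, and these cover counting error only. The code was tested on simulated data. Alternatives were RLE and total-count scaling, DESeq2 1.42.0, no filter, at least 50 counts in 6 libraries, head reads thinned, all 36 libraries of 6 tissues, a replicate block, and each library left out.

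Described transcripts were called, did not overlap, reached a mean of 5 CPM in the higher tissue and, where a gene had more than 1 tested transcript, had a gene called in the same direction. Of these, at 1 per gene, the 8 with the largest fold and the 4 with the largest difference each way were taken. Members and lists were chosen with earlier results of these data known. The fit of 36 libraries against other tissues, the blocks of neighbours beyond direct neighbours, the genes at 0 and the fit without head libraries 2 and 5 were added after seeing the data. The series design calls the 6 libraries of a tissue biological replicates. Nothing in the labels ties a number to 1 animal across tissues, and same-numbered head and anterior margin libraries deviated with correlations from -0.0849 to 0.0213, so the samples were not paired.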

Additional observations from a re-analysis of the deposited data

Results flagged for a closer look

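In each of the 24 described transcripts, the highest or lowest of the 6 libraries of a tissue was checked for a gap to its nearest neighbour that takes up an unusual part of the whole range (Dixon's 95% criterion). Of 48 groups of 6 tested, 6 passed. The criterion's rate of about 1 in 20 assumes normally distributed values, so it cannot be set against these 6. Some flagged groups lay near 0: the anterior margin libraries together held 3 counts of LOC111414410 and 5 of LOC111415711. In dorsal head library 2, LOC111415711 (XM_023047530.1) was at 41.9 CPM with the next head library at 14.4 CPM, LOC111419103 (XM_023051863.1) was at 0.702 CPM with the next at 0.242 CPM, and LOC111424382 (XM_023057888.1) was at 0.387 CPM with the next at 0.0892 CPM. In anterior margin library 1, LOC111414410 (XM_023045749.1) was at 0.214 CPM with the other 5 libraries at 0, and LOC111425572 (XM_023059686.1) was at 0.713 CPM with the next at 0.27 CPM. In anterior margin library 4, LOC111415711 was at 0.162 CPM with the next at 0.0442 CPM. The described transcripts were chosen for having no overlap between the tissues, so each of these values lies on its own tissue's side by that choice.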

How the results depend on the processing

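The number of transcripts called, 5006, lay between 4436 and 5723 under the alternatives that keep all 12 libraries and the unpaired design, at 4453 in the fit of 36 libraries and from 4140 to 4860 with 1 library left out; with a replicate block it was 3428, and 3350 of the 5006 calls kept their direction and call. Scaling by total counts moved the directions most: 994 transcripts were higher and 3553 lower in the head, 553 and 2042 at 2-fold or more. With that scaling 1061 gene-level units were higher. RLE scaling put 49.5% of calls higher. Non-coding transcripts higher in the head (67) fell to 37 with total counts, 44 with thinned head reads, 43 with the replicate block and from 44 to 65 with 1 library left out (44 without dorsal head replicate 3); those lower (163) fell to 74 with at least 50 counts in 6 libraries, where fewer were tested. Leave-one-out ranges were 1886 to 2545 transcripts at 2-fold or more (841 to 1312 higher, 1008 to 1242 lower) and 4275 to 4940 gene-level units. The set tested changed in these fits as well. Runs of at least 3 neighbouring genes numbered 11, and 28 with untested genes skipped. No value reversed. XM_023065439.1 lost its call with total counts and with the replicate block (log2 fold change 0.65, adjusted p = 0.071, edgeR); the other 23 described transcripts kept theirs under each alternative run in which they were tested. Of the 20 genes in the described blocks, LOC111420471 alone lost its call where it was tested, in 11 alternatives; some low genes were not tested under every alternative. The cause of these changes was not tested. The protein pattern classes were not run, since no protein sequences were at hand. Over the 6 anterior margin libraries 3 counts correspond to 0.0266 CPM, so lower levels there rest on fewer counts than that.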

Other observations

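Transcripts of 1 gene could differ in opposite directions. Of 1538 genes with more than 1 tested transcript, 7 had transcripts called at least 2-fold higher and at least 2-fold lower in the head. LOC111413909 was the clearest. Its transcript XM_023045049.1 had 13.3, 24.5 and 42.3 CPM as lowest, median and highest value in the head, against 0, 0 and 2.23 CPM in the anterior margin, and XM_023045048.1 had 18.3, 21.5 and 29.4 CPM in the head, against 45.6, 57.1 and 71.7 CPM in the anterior margin. Summed over its transcripts the gene differed by a log2 fold change of -0.25 ± 0.17 (SE; adjusted p = 0.26, edgeR's quasi-likelihood test). The tissues differed here in which transcript was counted more than in the total.

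In LOC111422534, XM_023055738.1 had 1.35, 11.4 and 22.7 CPM in the head and 0 counts in the anterior margin, at least 404-fold higher. By contrast, XM_023055753.1 averaged 3.09 ± 3.36 CPM in the head and 32.7 ± 21.6 CPM in the anterior margin (SD, n = 6 each). XM_023055745.1 was also called lower, at -1.33 ± 0.34 (SE; adjusted p = 0.0094, edgeR). Summed over its transcripts LOC111422534 was called lower in the head, at -1.22 ± 0.35 (SE; adjusted p = 0.013, edgeR). In LOC111424198, whose transcript XM_023057644.1 was lower in the head, XM_023057650.1 averaged 442 ± 163 CPM in the head and 172 ± 43.3 CPM in the anterior margin, a log2 fold change of 1.37 ± 0.27 (SE; adjusted p = 0.0022, edgeR). In LOC111423829, XM_023057203.1 averaged 16.2 ± 4.72 CPM in the head and 5.98 ± 4.79 CPM in the anterior margin, and XM_023057206.1 averaged 1.67 ± 0.949 CPM in the head and 10.6 ± 2.28 CPM in the anterior margin. The other genes of the 7 were LOC111416361, LOC111418730 and LOC111418866. The division of reads among the transcripts of a gene is an estimate in the deposited counts, and its error was not given.

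Transcripts whose genes carry a symbol other than a locus number were few. Of 44 such transcripts of 32 genes, 13 were called higher and 5 lower in the head, where the shares over all tested transcripts were 20.7% and 16%. None of the 44 was called at 2-fold or more, against 17.5% of all tested transcripts.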
